A study of Mus musculus with 18 samples.

Results

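Primary fibroblasts of the genotype Pro/Pro;Cas9/+ were given 1 of 2 guide RNAs against Lmna, and their RNA under gLmna-2 was compared with their RNA under gLmna-1. The comparison holds 4 of the 18 libraries of the series, chosen by their titles: 2 libraries under gLmna-2 and 2 under gLmna-1, with 1 library of each guide from each of 2 mice, called mouse 1 and mouse 2. Pro is taken from the title of the series to be the progeria allele of Lmna, and both copies of the gene are of this kind in these cells. Cas9/+ is taken to be 1 copy of a Cas9 transgene; its promoter and the guide sequences are not given in the sources used here. The 2 libraries of the same mice under gMock, a guide that matches nothing in the genome, stand beside the comparison. The same guides were given to cells with Cas9 and no Pro allele (+/+;Cas9/+) and to cells with 1 Pro allele and no Cas9 (Pro/+; +/+), each from 2 mice; the name of 1 of these last mice joins 2 numbers, and the labels do not say whether it was 1 animal or a pool.

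All cells were tail tip fibroblasts, taken from mice aged 2 months and collected at passage 5. The guides arrived by lentivirus in 4 µg/ml polybrene with mCherry as a reporter. Over 80% of the cells were mCherry-positive, none were sorted or selected, and no DNase step was used before the RNA was sequenced. A library can therefore hold cells without a guide. The titles of the mouse 2 libraries of each genotype end in a number that the titles of mouse 1 lack, while the table's columns carry such a number for both mice; the labels do not say what it stands for. The mouse was a term of the fit, and values are given for each mouse. The 18 libraries held 22424446 to 42622126 reads, and the 4 compared held 23864226 to 31357210. The values are FPKM, read counts divided by transcript length and by the depth of the library. Of the 8 markers of fibroblasts, 7 stood above 10 FPKM in all 4 libraries, with Col1a1 between 1123 and 2895 FPKM. The defining keratinocyte genes Krt5 and Krt14 were at or near 0, as were Myod1 and Adipoq, markers of muscle and fat. The 6 macrophage and immune markers were present and summed to 421 and 1084 FPKM under gLmna-1 and to 1418 and 751 FPKM under gLmna-2, in mouse 1 and mouse 2, so that their sum was higher under gLmna-2 in mouse 1 and lower in mouse 2. Fewer cells of a type and less RNA per cell cannot be told apart in these bulk libraries.

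Lmna encodes lamin A and lamin C, filament proteins of the nuclear lamina, which share exons 1 to 10 and differ in their 3′ ends. Progerin, the form of lamin A found in Hutchinson-Gilford progeria, arises when a cryptic splice site in exon 11 is used. A Cas9 cut is a DNA break, and breaks are known to stabilise the transcription factor p53, whose targets include Mdm2. Skin fibroblasts make the collagens and other proteins of the matrix, fold them with the chaperones of the endoplasmic reticulum (ER), and answer injury with chemokines, proteases and Wnt and TGF-beta signals.

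Of 12599 genes tested, 1253 (9.95%) differed between gLmna-2 and gLmna-1 in Pro/Pro;Cas9/+ cells at an adjusted p below 0.05, the threshold meant wherever a gene is said to have passed. Of these, 872 (6.92%) were higher and the others (3.02%) were lower under gLmna-2. These shares are the background for the counts within gene lists given below. ER chaperones, CXC chemokines, fibrillar collagens and complement genes were among the lower genes, and Wnt ligands, tissue inhibitors of metalloproteases and the p53 targets Mdm2 and Pmaip1 were among the higher ones. All 1253 genes moved in 1 direction in both mice, against 54% of all tested genes. Guide values did not overlap in 1190 of them, against 41.6% of all tested genes. The 1253 genes were chosen by a test on these same libraries, which by itself raises both shares, so they are given as a description. The median over all tested genes was 0.06 on the log2 scale. The difference was over 1 on that scale in 256 of the genes that passed, of which 164 were higher and 92 lower.

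The count rests on a spread estimated from all 18 libraries. The median residual SD was 0.145 (log2) in Pro/Pro;Cas9/+ cells, 0.093 in +/+;Cas9/+ cells and 0.091 in Pro/+; +/+ cells, and with 1 weight per genotype, an alternative chosen after this was seen, 244 genes passed (182 higher and 62 lower). With the 6 Pro/Pro;Cas9/+ libraries alone, limma passed 0 genes and 1837 had an unadjusted p below 0.05; with a weight for each library it passed 0 and 1447 had. Without the mouse as a block 59 genes passed. Without the gLmna-2 library of mouse 1 the count was 140, without that of mouse 2 it was 238, and without the gLmna-1 library of mouse 1 it was 2629; without the gMock library of either Pro/+; +/+ mouse it was 807. In all of these fits the 1253 genes had the direction given here. Most of these fits leave the estimated difference itself unchanged, and the genes were chosen by that difference. A kept direction is therefore no added evidence for them. The share of passing genes that was higher, 69.6%, was 56.1% after median-of-ratios scaling and 54.4% after quantile normalization.

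**Figure D1:**
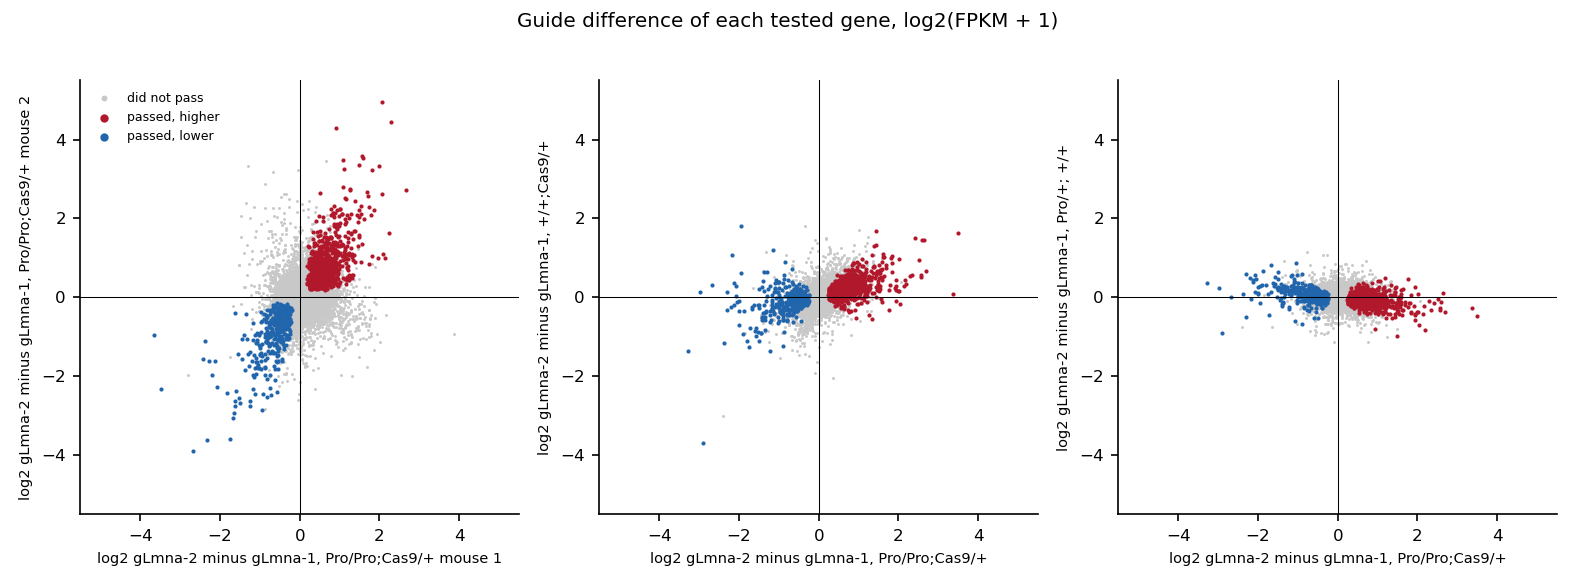
Guide difference (gLmna-2 minus gLmna-1, log2(FPKM + 1)) of each of the 12599 tested genes, in mouse 1 against mouse 2 of Pro/Pro;Cas9/+ (left), and in Pro/Pro;Cas9/+ against +/+;Cas9/+ (middle) or Pro/+; +/+ (right). Genes that passed in Pro/Pro;Cas9/+ are red where higher and blue where lower; they were chosen by their difference in Pro/Pro;Cas9/+, so the middle and right panels do not compare the size of the guide effect between genotypes.

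Lmna itself, the gene both guides target (chromosome 3, mm10), did not pass. Its transcript stood at 249.0 and 217.2 FPKM under gLmna-1, at 247.2 and 310.0 FPKM under gLmna-2 and at 245.8 and 369.8 FPKM under gMock, in mouse 1 and mouse 2. The guides were alike in mouse 1, and gLmna-2 was the higher in mouse 2, with a log2 difference of 0.25 ± 0.17 (SE; limma, adjusted p = 0.413). The last parts of the lamin A transcript were lower under either guide than under gMock. The exon 12 untranslated part (chr3:88481148-88482073) stood at 0.42 and 0.37 of the mean of exons 4 to 9 under gMock, at 0.26 and 0.24 under gLmna-1 and at 0.29 and 0.19 under gLmna-2. gLmna-2 was thus 12% above gLmna-1 in mouse 1 and 20.7% below it in mouse 2, and the guides overlapped. Exon 11 (chr3:88482346-88482612) was also counted against the exon 12 untranslated part. It was then at 0.55 and 0.63 under gLmna-1 and at 0.66 and 0.75 under gLmna-2, with gMock at 0.51 and 0.54. By this ratio gLmna-2 was 19.9% and 20.2% higher in the 2 mice. Against exons 4 to 9, exon 11 under gLmna-2 differed from gLmna-1 by 34.2% in mouse 1 and by -4.7% in mouse 2. The direction in mouse 2 thus depended on the reference. The coding part of exon 12, 26 bases long, held 6 and 8 reads under gLmna-1, 21 and 18 under gLmna-2 and 34 and 39 under gMock. Their FPKM under gLmna-2 was 2.68 times that under gLmna-1 in mouse 1 (95% exact interval 1.05 to 8.12) and 2.87 times in mouse 2 (1.19 to 7.64); these intervals cover counting error only. No test was run on the parts.

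Among 23 tested genes of the lamins and of the nuclear envelope, 1 was higher and 0 were lower, at a list median of 0.04. The gene that rose was Tpr, a protein of the nuclear pore basket, at 25.1 and 30.2 FPKM under gLmna-1 and 34.0 and 37.0 FPKM under gLmna-2 (log2 difference 0.35 ± 0.07, limma, adjusted p = 0.0178). Zmpste24, the protease that matures lamin A, stood at 31.4 and 34.2 FPKM and at 38.7 and 33.5 FPKM and did not pass (adjusted p = 0.39). Of 26 tested genes that sense or repair DNA double-strand breaks, 1 was higher and 0 were lower. It was Polm, a polymerase of end joining, with 5.86 and 6.12 FPKM under gLmna-1 and 7.88 and 10.3 FPKM under gLmna-2 (adjusted p = 0.0342).

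Many ER chaperones and folding enzymes were lower under gLmna-2. These proteins are induced by the unfolded protein response, which reads the folding load of the ER through the sensors ATF6, IRE1 and PERK. Of 18 tested members 9 were lower and 0 were higher, at a median of -0.41 beside 0.06 for all genes. In both mice 15 were lower, against 2481 of all 12599 tested genes. Dnajb9 was the member with a positive difference (0.13 ± 0.22, limma, adjusted p = 0.773). Calr, the calcium-binding chaperone calreticulin, stood at 1235 and 1245 FPKM under gLmna-1, at 843 and 738 FPKM under gLmna-2 and at 1083 and 767 FPKM under gMock. Hsp90b1, the ER form of HSP90, stood at 677 and 705 FPKM under gLmna-1 and at 487 and 467 FPKM under gLmna-2. In both genes the guides did not overlap, as in 41.6% of all tested genes. For Calr gMock of mouse 2 was near gLmna-2. Manf, a secreted ER stress protein, fell from 85.8 and 93.0 to 59.0 and 60.3 FPKM (log2 difference -0.57 ± 0.08, limma, adjusted p = 0.00655). Pdia4, a disulphide isomerase, fell from 188 and 198 to 129 and 119 FPKM (-0.63 ± 0.10, adjusted p = 0.00954). Creld2, another ER stress protein, fell from 52.4 and 55.8 to 34.4 and 35.3 FPKM (-0.62 ± 0.11, adjusted p = 0.0114). The log2 differences of Calr and Hsp90b1 were -0.65 ± 0.13 and -0.53 ± 0.11 (adjusted p = 0.0165 and 0.0203). The other members that passed, from 0.26 to 0.50 lower on the log2 scale, were Pdia3, Pdia6, Dnajb11 and Xbp1, the factor that IRE1 activates. Hspa5 (BiP), the chaperone that holds the sensors inactive, stood at 675 and 710 FPKM under gLmna-1 and at 448 and 519 FPKM under gLmna-2 and did not pass (-0.52 ± 0.18, adjusted p = 0.101). Manf and Pdia4 also passed with 1 weight per genotype. Without the gLmna-2 library of mouse 1 or mouse 2 the count was 0 or 2, and without the gLmna-1 library of mouse 1 or mouse 2 it was 13 or 5.

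Because ATF6 binds DNA at the ER stress element, the 250 bases before the start of each gene were searched on both strands for its letters, CCAAT and CCACG with 9 bases of any kind between them (RefSeq promoters, GRCm38.p6). The element was in 37 of 32851 promoters (0.113%), in 14 of 9833 tested genes with a promoter (0.142%), and in 7 of the 16 chaperone genes that had one (43.8%). It was in 4 of 276 genes that were lower and in 0 of 680 that were higher. All 4 are among the 7 chaperone genes, so this count is not separate from that of the list. The 4 lower genes are shown with the element in capitals and 20 bases on either side, on the gene's strand, 5′ to 3′; capitals that start with CGTGG hold the element on the other strand.
Creld2 (chr15:88819500-88819558, + strand): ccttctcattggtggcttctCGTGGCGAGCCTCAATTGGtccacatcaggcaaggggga
Calr (chr8:84847055-84847113, - strand): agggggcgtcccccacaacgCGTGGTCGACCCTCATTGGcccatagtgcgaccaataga
Hsp90b1, far element (chr10:86705618-86705676, - strand): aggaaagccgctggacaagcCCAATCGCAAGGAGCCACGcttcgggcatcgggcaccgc
Hsp90b1, near element (chr10:86705513-86705571, - strand): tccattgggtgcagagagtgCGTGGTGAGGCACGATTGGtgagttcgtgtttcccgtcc
Pdia6 (chr12:17266471-17266529, + strand): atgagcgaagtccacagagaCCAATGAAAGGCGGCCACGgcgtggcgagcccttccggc
Dnajc3 and Canx, which did not pass (adjusted p = 0.172 and 0.998), also hold it and are shown for comparison.
Dnajc3 (chr14:118937807-118937865, + strand): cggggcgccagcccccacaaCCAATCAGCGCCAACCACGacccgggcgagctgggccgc
Canx (chr11:50325780-50325838, - strand): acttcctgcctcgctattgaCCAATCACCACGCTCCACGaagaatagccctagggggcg
The third chaperone gene with the element that did not pass was Hspa5. A match describes the letters of the promoter and is no measurement of binding.

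Chemokines, the secreted proteins that draw leukocytes, were split. Of 22 tested CC and CXC chemokines 7 were lower and 3 were higher; of the 10 CXC members 4 were lower and 0 were higher, at a median of -0.63. Cxcl1, which draws neutrophils, stood at 85.6 and 99.4 FPKM under gLmna-1, at 19.5 and 19.6 FPKM under gLmna-2 and at 21.8 and 27.8 FPKM under gMock. The gLmna-1 libraries were the high ones, and gMock lay near gLmna-2. The log2 difference between the guides was -2.18 ± 0.31 (limma, adjusted p = 0.00633). Cxcl5, of the same neutrophil group, stood at 219.7 and 310.6 FPKM under gLmna-1, at 64.4 and 25 FPKM under gLmna-2 and at 72.5 and 53.5 FPKM under gMock (-2.67 ± 0.48, adjusted p = 0.0122). Ccl2, which draws monocytes, stood at 469.7 and 651.0 FPKM under gLmna-1, at 212.8 and 235.7 FPKM under gLmna-2 and at 220.1 and 260.2 FPKM under gMock (-1.30 ± 0.23, adjusted p = 0.0114). For these 3 genes both gMock values lay below both gLmna-1 values. Cxcl12, the ligand of CXCR4, followed another course, with 228 and 266 FPKM under gLmna-1, 95.3 and 41.8 FPKM under gLmna-2 and 189 and 47.3 FPKM under gMock (-1.94 ± 0.41, adjusted p = 0.0202); its gMock value lay near gLmna-1 in mouse 1 and near gLmna-2 in mouse 2. Cxcl15 fell from 7.64 and 3.91 to 2.60 and 0.47 FPKM (-1.50 ± 0.22, adjusted p = 0.0066). Ccl7 and Ccl20 also fell. The 3 that rose were Ccl6, Ccl8 and Ccl25, with Ccl8 going from 42.2 and 20.6 to 98.3 and 67.7 FPKM (adjusted p = 0.0217). The macrophage markers, whose sum was higher under gLmna-2 in mouse 1 and lower in mouse 2, do not share the direction of these genes in both mice, and their part in the chemokine values was not tested. Cxcl15 alone also passed with 1 weight per genotype; without the gLmna-2 library of either mouse 1 chemokine was lower and 0 were higher.

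Chemokine promoters were searched in the same way for the NF-kB letters GGGA and TTCC with 2 bases of any kind between them, which stood in 397 of 32851 promoters (1.21%) and in 4 of 15 chemokine promoters (26.7%). They were in 5 of 276 lower genes (1.81%) and in 7 of 680 higher genes (1.03%). Cxcl1, which fell, and Cxcl2, which did not pass (0.28 on the log2 scale, adjusted p = 0.665), are shown because they lie close together on chromosome 5 with the same letters in capitals; a shifted match on the other strand overlaps it. Cxcl3 and Cxcl10, the other two with these letters, did not pass either.
Cxcl1 (chr5:90891154-90891203, + strand): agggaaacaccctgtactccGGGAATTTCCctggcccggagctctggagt
Cxcl2 (chr5:90903782-90903831, + strand): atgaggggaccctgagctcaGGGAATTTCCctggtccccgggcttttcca
Of 19 tested NF-kB subunits, feedback genes and targets, 1 was higher and 1 was lower. Ptgs2, the inducible cyclooxygenase, rose from 84.0 and 83.7 to 122 and 155 FPKM (log2 difference 0.71 ± 0.18, adjusted p = 0.0421). Vcam1, an adhesion receptor, fell from 58.6 and 50.3 to 40.8 and 25.1 FPKM (-0.74 ± 0.18, adjusted p = 0.0329).

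**Figure D2:**
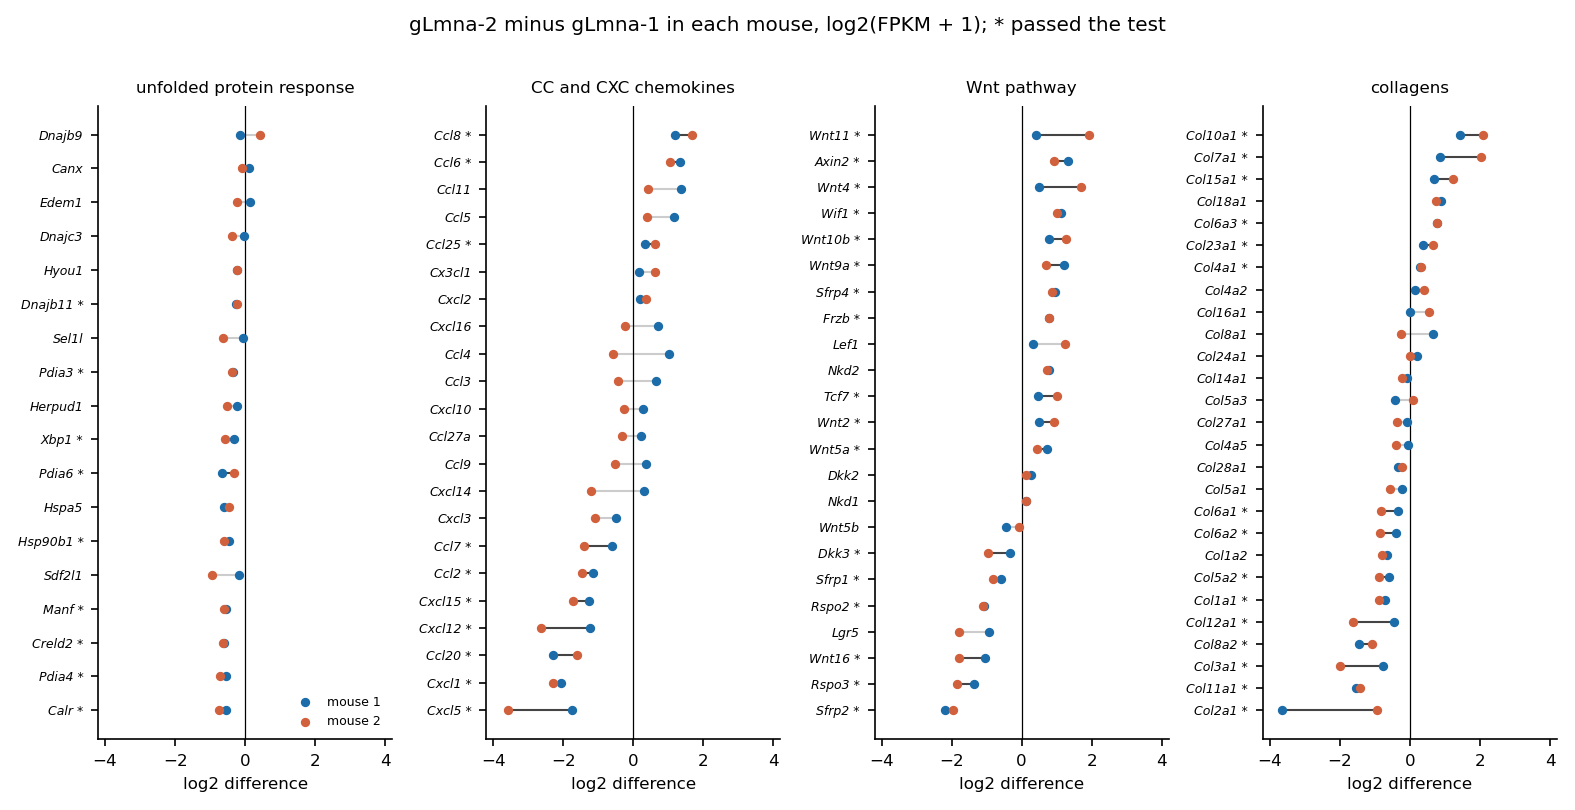
Log2 difference (gLmna-2 minus gLmna-1) of each tested member of 4 lists in mouse 1 (blue) and mouse 2 (orange), joined by a line; an asterisk marks members that passed. The chaperones sit left of 0 with few exceptions, while chemokines, Wnt genes and collagens spread to both sides.

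Complement genes, which opsonise microbes and are also made by fibroblasts, fell in part. Of 12 tested, 4 were lower and 0 were higher, at a median of -0.30. The mice differed: the median was 0.02 in mouse 1 and -0.79 in mouse 2. The summed FPKM rose from 256.5 to 391.5 in mouse 1 and fell from 332.6 to 180.3 in mouse 2. In both mice 6 members were lower and 2 higher, against 2481 and 4315 of all 12599 tested genes. C1ra, the protease that starts the classical pathway, stood at 25.4 and 19.1 FPKM under gLmna-1, at 11.5 and 9.71 FPKM under gLmna-2 and at 13.2 and 11.9 FPKM under gMock (log2 difference -1.0 ± 0.11, limma, adjusted p = 0.00301). Its partner C1s1 fell from 24.8 and 25.6 to 17.4 and 13.9 FPKM (-0.66 ± 0.13, adjusted p = 0.0152). Cfb, factor B of the alternative pathway, fell from 4.98 and 2.90 to 2.50 and 1.32 FPKM (-0.76 ± 0.10, adjusted p = 0.00495). Serping1, the inhibitor of C1, fell from 44 and 25.2 to 24.6 and 17.4 FPKM (-0.66 ± 0.11, adjusted p = 0.0109). C1ra and Cfb kept their calls when any 1 of the 4 guide libraries was left out, and with 1 weight per genotype.

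Of the lists with at least 5 tested members, that of the Wnt pathway had the highest share that passed, 17 of 23. Of these, 11 were higher and 6 lower, and the list median was 0.70. The lists were chosen with earlier results of these data known, so the order of their shares is a description and no test. Wnt proteins bind Frizzled receptors and act through beta-catenin and TCF factors or, as with Wnt5a, without them; R-spondins amplify the signal, and Sfrp, Wif1 and Dkk proteins blunt it. Among ligands, Wnt5a rose from 13.4 and 10.6 to 23 and 14.6 FPKM, with gMock at 12.4 and 9.13 FPKM (log2 difference 0.58 ± 0.12, adjusted p = 0.0174). Wnt2, Wnt4, Wnt9a, Wnt10b and Wnt11 also rose, by 0.70 to 1.17 on the log2 scale, from at most 2.68 FPKM under gLmna-1. Wnt16 was the ligand that fell, from 8.83 and 3.77 to 3.8 and 0.38 FPKM (-1.41 ± 0.27, adjusted p = 0.0159). The target gene Axin2 rose from 0.80 and 0.38 to 3.52 and 1.64 FPKM (1.13 ± 0.22, adjusted p = 0.0152), and Tcf7, one of the TCF factors, from 1.36 and 1.65 to 2.29 and 4.29 FPKM (0.74 ± 0.14, adjusted p = 0.0146). Apart from Wnt5a and Wnt16, these ligand and target genes reached at most 7.50 FPKM (Wnt9a) in the 4 libraries. Rspo3 fell from 38.3 and 36.5 to 14.2 and 9.35 FPKM, with gMock at 19.8 and 11.5 FPKM (-1.61 ± 0.18, adjusted p = 0.00301), and Rspo2 fell too (-1.08 ± 0.27). Sfrp2 stood at 53 and 47.7 FPKM under gLmna-1, at 10.8 and 11.5 FPKM under gLmna-2 and at 46.5 and 33.4 FPKM under gMock (-2.08 ± 0.22, adjusted p = 0.00301). Here gLmna-2 was the low group, and gMock lay nearer to gLmna-1. Sfrp1 and Dkk3 fell as well, while the antagonists Sfrp4, Wif1 and Frzb rose, Frzb from 4.08 and 4.87 to 7.73 and 9.14 FPKM (0.79 ± 0.15, adjusted p = 0.0152). Sfrp2 and Rspo3 were the members that passed with 1 weight per genotype and without any 1 of the 4 guide libraries; without the gLmna-2 library of mouse 1, 0 members were higher and 2 lower, and without that of mouse 2, 1 and 2.

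Of 27 collagens tested, 9 were lower and 6 higher, at a median of -0.22. Of the 10 fibrillar collagens 5 were lower and 0 were higher, at a median of -0.73. Of the 8 collagens of basement membranes and networks 1 was lower and 3 were higher, and of the 9 others 3 were lower and 3 were higher; the types were not compared by a test. Col1a1, the main chain of type I collagen, stood at 2895 and 2060 FPKM under gLmna-1, at 1755 and 1123 FPKM under gLmna-2 and at 2402 and 1160 FPKM under gMock (log2 difference -0.80 ± 0.19, limma, adjusted p = 0.0295). Col3a1, the chain of type III collagen, stood at 531 and 462 FPKM under gLmna-1, at 314 and 116 FPKM under gLmna-2 and at 368 and 123 FPKM under gMock (-1.37 ± 0.29, adjusted p = 0.022). In both genes the guides did not overlap, as in 41.6% of all tested genes, and gMock of mouse 2 lay near gLmna-2. Col11a1, a minor fibrillar chain, fell from 54.9 and 48.6 to 18.2 and 17.4 FPKM (-1.49 ± 0.17, adjusted p = 0.00338) and kept its call without any 1 of the 4 guide libraries. Col2a1, the cartilage collagen, fell from 142 and 402 to 10.2 and 208 FPKM, a fall that was much steeper in mouse 1 (-2.31 ± 0.54, adjusted p = 0.0308). The 3 chains Col6a1, Col6a2 and Col6a3 of type VI collagen went apart, the first 2 lower (-0.58 ± 0.14 and -0.63 ± 0.13) and Col6a3 higher, from 31.9 and 43.6 to 55.8 and 75.8 FPKM (0.79 ± 0.15, adjusted p = 0.0152). Col7a1, of the anchoring fibrils below the epidermis, rose from 1.45 and 1.23 to 3.43 and 8.12 FPKM (1.44 ± 0.24, adjusted p = 0.00939). Col10a1 rose from 3.53 and 6.75 to 11.3 and 32.0 FPKM (1.76 ± 0.32, adjusted p = 0.0122), and Col8a2 fell from 3.68 and 2.08 to 0.71 and 0.47 FPKM (-1.26 ± 0.21, adjusted p = 0.0103). The cartilage and bone markers, 4 of 10 lower and 0 higher, moved with the fibrillar collagens: Col2a1 is shared between the lists, and Comp fell from 56.5 and 65.6 to 17.7 and 49.3 FPKM (-1.02 ± 0.27, adjusted p = 0.0446), Ibsp from 3.77 and 4.99 to 1.61 and 0.99 FPKM and Cnmd from 0.99 and 1.42 to 0.022 and 0.058 FPKM. Acan and Bglap stayed below 1.3 FPKM in the 4 libraries. Their part in the collagen values was not tested. Without the gLmna-2 library of mouse 1, 2 collagens were lower and 1 higher.

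Other matrix genes fell more often than they rose: of 48 tested, 10 were lower and 3 were higher. Lox, the enzyme that cross-links collagen, stood at 2239 and 2936 FPKM under gLmna-1 and at 1540 and 1060 FPKM under gLmna-2 (log2 difference -1.0 ± 0.24, adjusted p = 0.0303). Ogn, a small proteoglycan, fell from 173 and 142 to 80.3 and 36.2 FPKM (-1.52 ± 0.25, adjusted p = 0.00948). Ccn5 fell from 602 and 720 to 370 and 324 FPKM (-0.93 ± 0.14, adjusted p = 0.00787), and Emilin1, of the elastic fibres, from 106 and 142 to 71.9 and 57.7 FPKM (-0.92 ± 0.16, adjusted p = 0.0112). A pair of matricellular genes went the other way. Tnc (tenascin C), a matrix protein of wounds, stood at 140 and 112 FPKM under gLmna-1, at 247 and 254 FPKM under gLmna-2 and at 138 and 170 FPKM under gMock (1.00 ± 0.16, adjusted p = 0.00863). Smoc2 rose from 95 and 104 to 235 and 326 FPKM (1.47 ± 0.22, adjusted p = 0.00675). The collagen prolyl hydroxylases P4ha1 and P4ha2 fell by 0.61 and 0.82 on the log2 scale and were the 2 of 18 hypoxia and glycolysis genes that passed.

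Among 25 tested metalloproteases and their inhibitors, 6 were higher and 4 lower. Of the 4 inhibitors tested, the 3 tissue inhibitors of metalloproteases (TIMPs) rose and Reck did not pass (-0.19 ± 0.10, adjusted p = 0.285). Timp1 went from 967 and 1078 to 1330 and 2049 FPKM (log2 difference 0.69 ± 0.16, adjusted p = 0.0298), Timp2 from 732 and 726 to 1076 and 1206 FPKM (0.64 ± 0.12, adjusted p = 0.0145) and Timp3 from 488 and 445 to 573 and 820 FPKM (0.56 ± 0.14, adjusted p = 0.0406). Mmp13, a collagenase, fell from 373 and 781 to 164 and 365 FPKM, with gMock at 177 and 603 FPKM (-1.14 ± 0.19, adjusted p = 0.00928). The mice differed in level, and the guides in each mouse differed in the same direction. Mmp10 (stromelysin 2) rose from 1.94 and 2.57 to 10.6 and 34.6 FPKM (2.65 ± 0.41, adjusted p = 0.0076), and Adam19 from 5.64 and 4.39 to 11.5 and 12.5 FPKM (1.12 ± 0.14, adjusted p = 0.00433). Mmp23 and Adamts5 fell by 0.98 ± 0.15 and 1.12 ± 0.18. Mmp12, an enzyme typical of macrophages, went from 1.57 and 11.4 to 8.04 and 24.9 FPKM (adjusted p = 0.0357); the macrophage markers were higher under gLmna-2 in mouse 1 and lower in mouse 2, and their part in this was not tested. With 1 weight per genotype 2 members were higher and 2 lower.

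Of 17 ligands, receptors and antagonists of the TGF-beta family 5 were higher and 3 lower, and of 11 SMADs and SMAD-linked genes 0 passed; the list median was 0.08 beside 0.06 for all genes. Tgfb1 rose from 18.2 and 23.9 to 25.7 and 52.5 FPKM (log2 difference 0.79 ± 0.16, adjusted p = 0.0184). Inhba, the subunit of activin A, rose from 67.7 and 115 to 144 and 161 FPKM (0.78 ± 0.14, adjusted p = 0.0131). Grem1, an antagonist of bone morphogenetic proteins (BMPs), stood at 73.4 and 200.3 FPKM under gLmna-1, at 351 and 627 FPKM under gLmna-2 and at 132 and 488 FPKM under gMock (1.94 ± 0.27, adjusted p = 0.00605). Bmp4 fell from 93.8 and 47.1 to 53.4 and 23.1 FPKM (-0.90 ± 0.17, adjusted p = 0.0151). So Bmp4 was lower and Grem1 higher under gLmna-2 in both mice. Grem1 alone also passed with 1 weight per genotype; without the gLmna-2 library of mouse 1, 0 members of the list passed.

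**Figure D3:**
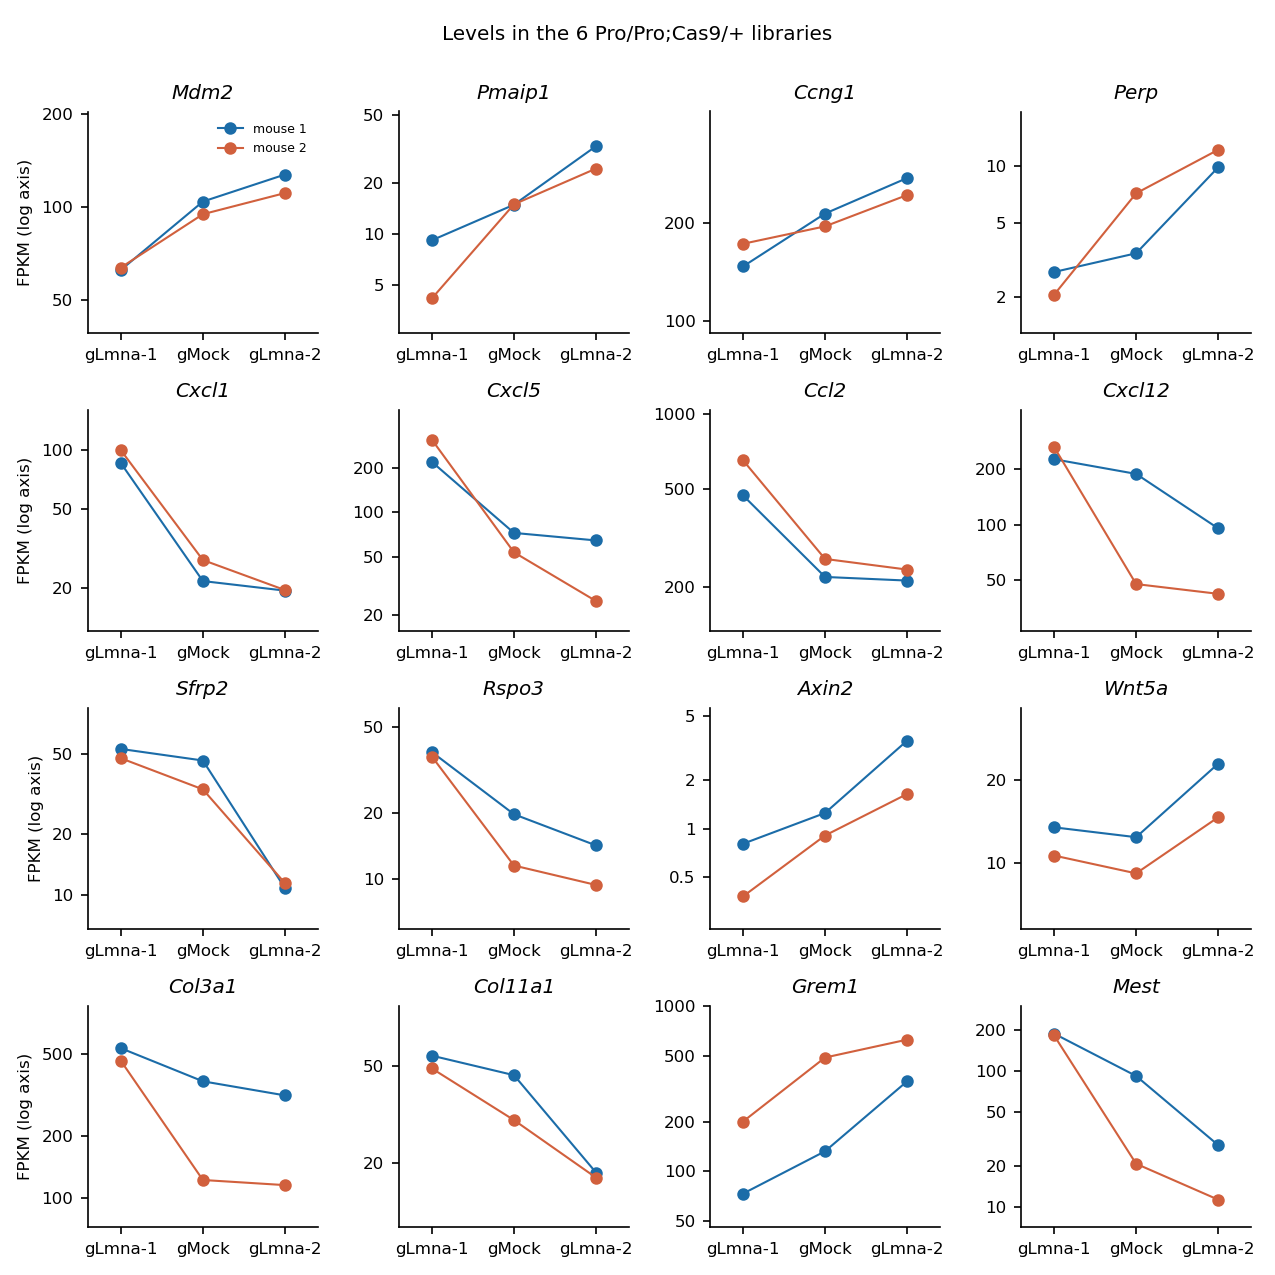
FPKM (log axes) of 16 genes in the 6 Pro/Pro;Cas9/+ libraries by guide, with mouse 1 in blue and mouse 2 in orange. Mdm2 and Pmaip1 are lowest and Cxcl1, Cxcl5 and Ccl2 highest under gLmna-1, and gMock lies between the guides for most of the genes drawn.

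Of 43 tested p53 targets, 5 were higher and 1 was lower under gLmna-2, at a median of 0.14. Among all tested genes 6.92% were higher and 3.02% lower, at a median of 0.06. The list was not tested as a set. Mdm2, the ubiquitin ligase that degrades p53, stood at 62.4 and 63.5 FPKM under gLmna-1, at 127.1 and 110.7 FPKM under gLmna-2 and at 103.9 and 94.6 FPKM under gMock. Both gLmna-1 values were low and close to each other, and gMock lay nearer to gLmna-2. The log2 difference between the guides was 0.90 ± 0.09 (limma, adjusted p = 0.00301). Pmaip1 (Noxa), a BH3 protein of apoptosis, stood at 9.18 and 4.17 FPKM under gLmna-1, at 32.9 and 24.3 FPKM under gLmna-2 and at 14.9 and 14.9 FPKM under gMock (2.01 ± 0.22, adjusted p = 0.00301). Its gLmna-1 values were the lowest and its gLmna-2 values the highest of the 3 treatments in both mice. Ccng1, cyclin G1, rose from 147 and 172 to 274 and 243 FPKM (0.70 ± 0.13, adjusted p = 0.0126). Perp, a p53 target that is also a desmosome protein, rose from 2.73 and 2.06 to 9.86 and 12.2 FPKM (1.83 ± 0.33, adjusted p = 0.0128), and Pml, of nuclear bodies, from 6.28 and 7.67 to 13.2 and 11 FPKM (0.71 ± 0.14, adjusted p = 0.0158). The member that fell was Bax, from 196 and 160 to 155 and 135 FPKM (-0.29 ± 0.07, adjusted p = 0.0276). Cdkn1a (p21), the best known arrest gene of the pathway, stood at 283.4 and 281.8 FPKM under gLmna-1 and at 386.4 and 254.5 FPKM under gLmna-2, higher in mouse 1 and lower in mouse 2, and did not pass (0.15 ± 0.14, adjusted p = 0.568). Mdm2 and Pmaip1 kept their calls with 1 weight per genotype and without any 1 of the 4 guide libraries, while over those fits the count of higher targets ran from 2 to 9.

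The parts of Mdm2 (chromosome 10) were read one by one because its transcripts start either at the first exon or, under p53, within the first intron. The first part, of 206 bases, held only 3 to 9 reads in each of the 4 libraries. The second, of 82 bases, stood at 17.3 and 17.6 FPKM under gLmna-1 and at 18.3 and 17.9 FPKM under gLmna-2, ratios of 1.06 (95% exact interval 0.67 to 1.70) and 1.02 (0.63 to 1.62). The 11 parts of at least 40 bases that lie more than 1000 bases from the start were 1.84 to 3.28 times as high under gLmna-2 as under gLmna-1 in mouse 1 and 1.29 to 1.90 times as high in mouse 2. Every one of these 11 ratios was above that of the second part in the same mouse. The first part had ratios of 1.07 (0.29 to 4.28) in mouse 1 and 3.83 (0.96 to 22.0) in mouse 2. In mouse 2 it was thus above all 11. From which start the transcripts came was not tested. The intervals cover counting error only, and no test was run.

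**Figure D4:**
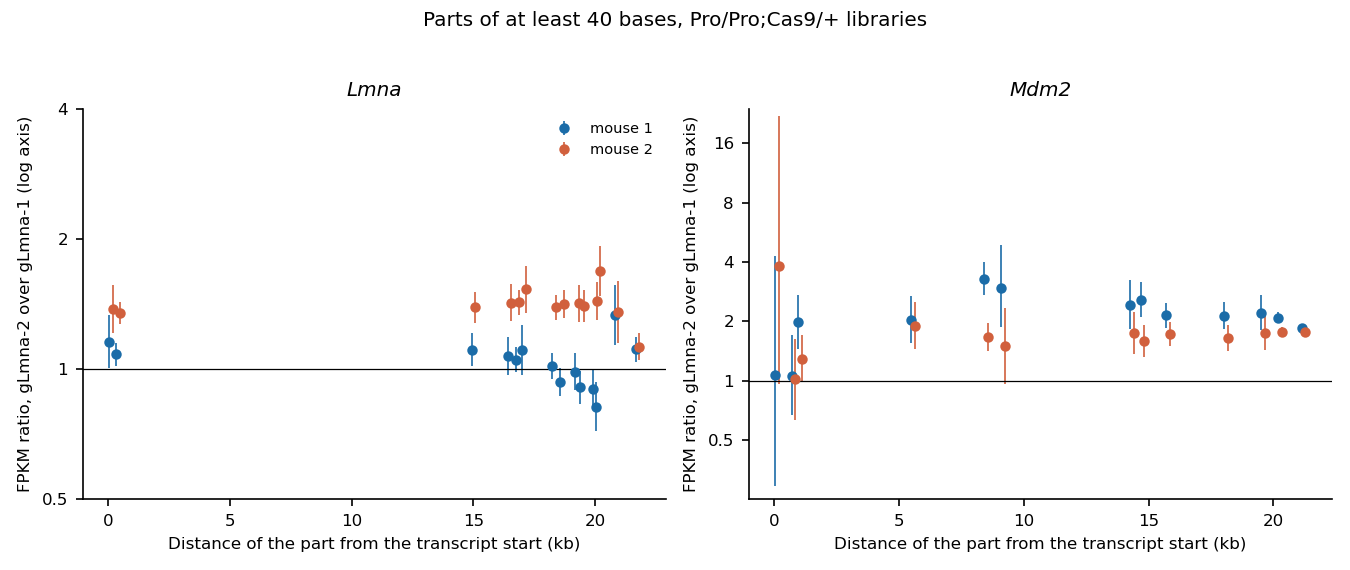
Ratio of FPKM under gLmna-2 to gLmna-1 (log axes) for parts of at least 40 bases of Lmna and Mdm2, against distance from the transcript start, in mouse 1 (blue) and mouse 2 (orange); bars are 95% exact intervals of the read counts. Exons 4 to 9 of Lmna sit near 1 in mouse 1 and above 1 in mouse 2, and the Mdm2 parts beyond the second lie above 1 in both mice.

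Of 45 tested cell cycle genes 0 were higher and 2 were lower, and these were the CDK inhibitors Cdkn1b (p27) and Cdkn2c (p18), at log2 differences of -0.75 ± 0.13 and -0.88 ± 0.19 (adjusted p = 0.0114 and 0.0237). None of 20 mitosis genes passed, although 19 of them were lower in both mice, against 2481 of all 12599 tested genes. Their median was -0.33, beside -0.87 in +/+;Cas9/+ cells and -0.11 in Pro/+; +/+ cells, so the fall is not particular to Pro/Pro;Cas9/+ cells. Among genes of S phase 0 of 20 passed at a median of 0.03. Mki67, for one, stood at 2.60 and 3.71 FPKM under gLmna-1 and at 1.89 and 2.77 FPKM under gLmna-2. Ccnd1 (cyclin D1), counted with the YAP and TEAD targets, stood at 93.6 and 120 FPKM under gLmna-1, at 198 and 300.4 FPKM under gLmna-2 and at 128 and 241 FPKM under gMock (1.19 ± 0.13, adjusted p = 0.00301). It kept its call without any 1 of the 4 guide libraries. Of the 12 targets tested, 4 were higher and 1 lower; Axl, Crim1 and Ptpn14 rose by 0.38 to 0.50 and Amotl2 fell by 0.70.

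A list of growth factors, cytokines and regulators of plasminogen activation was higher in 6 and lower in 2 of 23 members. Of its 17 growth factors and cytokines 5 were higher and 2 lower. Of its 6 plasminogen activators and inhibitors 1 was higher and 0 were lower. Fgf2, a mitogen of fibroblasts, rose from 1.87 and 3.04 to 10.9 and 24 FPKM, with gMock at 2.92 and 19.2 FPKM (log2 difference 2.34 ± 0.35, adjusted p = 0.00689). Il11, a cytokine of fibrotic tissue, rose from 2.81 and 2.50 to 8 and 13 FPKM, with gMock at 3.91 and 9.17 FPKM (1.62 ± 0.26, adjusted p = 0.00898). In both genes gMock of mouse 1 lay near gLmna-1 and that of mouse 2 near gLmna-2. Fgf10 rose from 3.06 and 8.23 to 5.97 and 16.6 FPKM (0.86 ± 0.19, adjusted p = 0.0237) and Fgf7 fell from 114.5 and 119.9 to 83.0 and 82.1 FPKM (-0.50 ± 0.10, adjusted p = 0.0163). Serpinb2, an inhibitor of plasminogen activators, went from 0.04 and 0.13 to 0.94 and 21.1 FPKM, so that nearly all of its level came from mouse 2 (2.59 ± 0.62, adjusted p = 0.0326).

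Interferon-stimulated genes had mostly positive differences and few calls. Of 41 tested, 2 were higher and 1 was lower, at a median of 0.51 beside 0.06 for all genes. In both mice 33 were higher, against 4315 of all 12599 tested genes. Isg15, a ubiquitin-like protein, stood at 8.92 and 6.37 FPKM under gLmna-1, at 26.3 and 16.3 FPKM under gLmna-2 and at 19.2 and 38.8 FPKM under gMock, and did not pass (log2 difference 1.35 ± 0.44, adjusted p = 0.0901). Both gLmna-1 values were below those of gLmna-2 and gMock. Irgm1, an interferon-inducible GTPase, rose from 10.9 and 11.9 to 27.1 and 26.0 FPKM, with gMock at 18.7 and 33.8 FPKM (1.15 ± 0.22, adjusted p = 0.0161), and Xaf1 from 2.15 and 1.98 to 5.38 and 4.67 FPKM (0.97 ± 0.25, adjusted p = 0.043). Ifitm3 fell from 676 and 452 to 524 and 285 FPKM (-0.52 ± 0.10, adjusted p = 0.0152). The macrophage markers, 0 of 14 of which passed, had a median of 1.5 in mouse 1 and -0.53 in mouse 2, beside 0.76 and 0.24 for the interferon list; their part in it was not tested. With 1 weight per genotype 0 members passed.

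Of 17 genes of cholesterol synthesis 3 were lower, and 14 were lower in both mice, against 2481 of all 12599 tested genes. Mvk and Hmgcs1, enzymes of the pathway, fell by 0.53 and 0.91 on the log2 scale. The list median was -0.38, beside -0.18 in +/+;Cas9/+ cells and -0.50 in Pro/+; +/+ cells, which have no Cas9. The fall is thus not particular to Pro/Pro;Cas9/+ cells. Of 13 NRF2 targets 2 rose: Gclc, of glutathione synthesis, from 16.5 and 19.8 to 29.8 and 35.4 FPKM (0.81 ± 0.16, adjusted p = 0.0174), and the quinone reductase Nqo1 from 15.5 and 17.6 to 20.2 and 47.2 FPKM (0.87 ± 0.19, adjusted p = 0.0247). Among 14 fibroblast markers 2 were higher and 3 lower. Cd34 rose from 3.83 and 5.14 to 9.65 and 13 FPKM (1.17 ± 0.12, adjusted p = 0.00301), and Thy1 from 87.6 and 33.6 to 158 and 85.6 FPKM (1.08 ± 0.20, adjusted p = 0.0139), while the 3 that fell were Col1a1, Col3a1 and Lox. Among mesenchymal transcription factors, 3 of 23 rose and 1 fell; Prrx1, a factor of limb and skin mesenchyme, rose from 17.9 and 15.8 to 42.5 and 43.5 FPKM (1.30 ± 0.20, adjusted p = 0.00793). No member passed among 22 ribosomal protein genes, 23 respiratory chain subunits, 17 genes of the integrated stress response, 12 of the insulin-like growth factor system and 18 immediate early genes (limma). The immediate early genes had a median of -0.42 in mouse 1 and 1.09 in mouse 2.

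**Figure D5:**
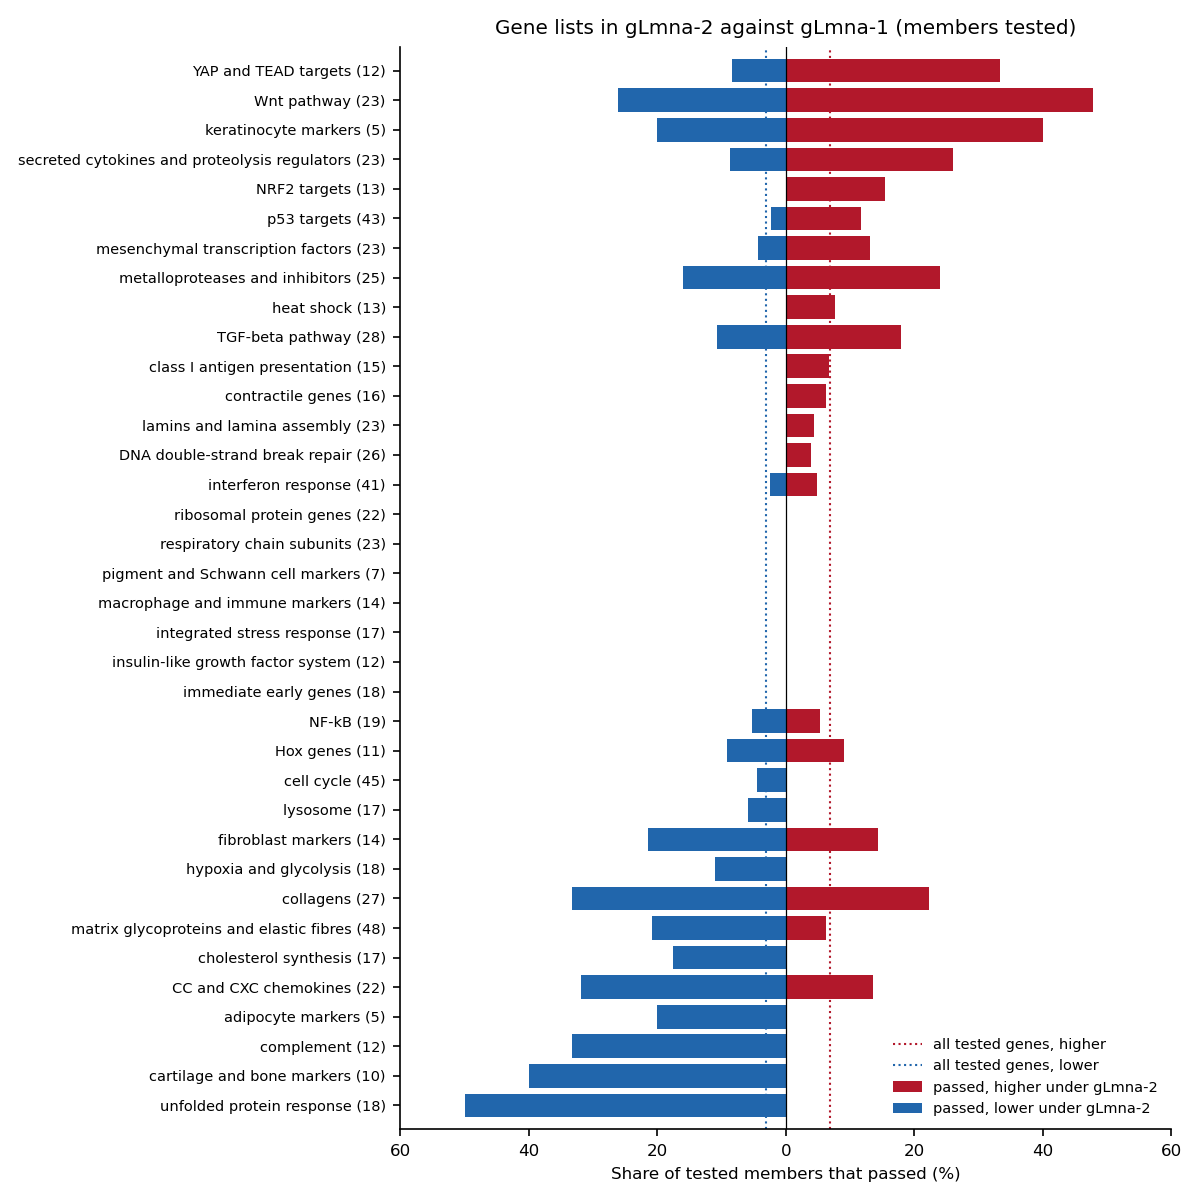
Share of the tested members of each gene list (number in brackets; lists with at least 5) that passed and were higher (red, right) or lower (blue, left) under gLmna-2, with dotted lines at the shares of all tested genes, 6.92% and 3.02%. The ER chaperones of the unfolded protein response lie furthest to the left, and the Wnt list is long on both sides. The lists were chosen with earlier results of these data known, so the shares are a description.

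Of 12 keratinocyte markers 5 were tested, of which 2 were higher and 1 was lower, at a median of 0.11. The genes with the widest differences held some known from keratinocytes that are on no list, and no test of them as a group was run. Ivl (involucrin) and the late cornified envelope genes Lce1g and Lce1h, which build the envelope of keratinocytes, and Crct1, a neighbour of theirs on chromosome 3, were higher under gLmna-2. Crct1 stood at 3.15 and 2.81 FPKM under gLmna-1, at 19.1 and 81.8 FPKM under gLmna-2 and at 6.12 and 35.4 FPKM under gMock (log2 difference 3.36 ± 0.47, limma, adjusted p = 0.00605). Ivl stood at 0.48 and 0.39 FPKM, at 3.15 and 13.3 FPKM and at 0.40 and 1.73 FPKM (2.43 ± 0.34, adjusted p = 0.00605). Lce1g went from 0.95 and 1.43 to 7.12 and 73.9 FPKM (3.50 ± 0.63, adjusted p = 0.0122) and is uncertain beside Lce1h, a close copy. S100a7a, of the same gene region, went from 10.6 and 16.1 to 24.2 and 160.2 FPKM (2.18 ± 0.42, adjusted p = 0.0158). In each of these 4 genes the gLmna-2 level was higher in mouse 2 than in mouse 1. The keratins Krt5 and Krt14 were listed at or near 0 in all 4 libraries, Trp63 fell from 0.94 and 1.03 to 0.32 and 0.30 FPKM (-0.60 ± 0.15, adjusted p = 0.0384), and Dsp (desmoplakin) rose from 2.77 and 2.90 to 8.92 and 11.5 FPKM (1.54 ± 0.24, adjusted p = 0.00756).

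Further genes that rose were Cck, the hormone cholecystokinin, from 24.6 and 33.4 to 162.4 and 224.7 FPKM, with gMock at 19.5 and 58.0 FPKM (log2 difference 2.69 ± 0.39, adjusted p = 0.0066), the phosphatase Ptpn22 from 0.53 and 0.94 to 3.50 and 22.1 FPKM, the R-spondin receptor Lgr6 from 0.70 and 1.15 to 4.15 and 23.8 FPKM, and the steroid reductase Akr1c18 from 0.22 and 0.25 to 3.24 and 10.7 FPKM. Cck was apart from both other treatments in both mice. Mest, an imprinted hydrolase, was the gene with the largest fall: it stood at 187.2 and 181.6 FPKM under gLmna-1, at 28.3 and 11.2 FPKM under gLmna-2 and at 91.4 and 20.7 FPKM under gMock (-3.29 ± 0.40, adjusted p = 0.00411). The 2 mice agreed closely under gLmna-1 and were far apart under gMock. Ptx3, the secreted pattern receptor pentraxin 3, stood at 439 and 483 FPKM under gLmna-1, at 86.5 and 38.6 FPKM under gLmna-2 and at 185 and 72.3 FPKM under gMock (-2.97 ± 0.39, adjusted p = 0.00529). Steap4, a metalloreductase, fell from 8.32 and 9.90 to 1.97 and 0.43 FPKM (-2.29 ± 0.31, adjusted p = 0.00559), the ferritin receptor Scara5 from 41 and 26.5 to 12.2 and 2.30 FPKM (-2.36 ± 0.32, adjusted p = 0.00586) and Hp, the haemoglobin-binding haptoglobin, from 11.1 and 31.2 to 2.93 and 4.17 FPKM (-2.13 ± 0.40, adjusted p = 0.0146). Npr3, Gas2 and Serpina3g fell by 2.08 to 2.19 on the same scale; Serpina3g has close copies and is uncertain. The lower genes Mest, Ptx3, Steap4 and C1ra, with the acute phase gene Lbp (-1.51 ± 0.13), and the higher gene Pmaip1 were among 21 genes, 13 higher and 8 lower, that passed in every one of 8 fits: as described, without the block, in mice with Cas9 only, with 1 weight per genotype and without each of the 4 guide libraries. These 21 were chosen after their values were seen. With the Pro/Pro;Cas9/+ libraries alone, or with a weight for each library, 0 genes passed. Those fits are not among the 8, and none of the 21 passed in them. Copg2, which cannot be separated from Mest, was also among the 8 lower ones.

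The gMock value lay between the 2 guides for 1020 of the 1253 genes that passed (81.4%) in mouse 1 and for 992 (79.2%) in mouse 2, against 45.6% and 42.9% of all tested genes. The 1253 genes were chosen for a wide gap between the guides, which by itself raises such a share, so it is given as a description. In mouse 1 gMock was closer to gLmna-1 for 59.5% of these genes, and in mouse 2 it was closer to gLmna-2 for 75.7%, against 40.7% and 68.4% of all tested genes. Against gMock, gLmna-1 differed in 123 genes (0.976%) and gLmna-2 in 45 (0.357%); these 2 comparisons share the gMock libraries. Mdm2 differed from gMock under gLmna-1 (log2 difference -0.65, limma, adjusted p = 0.0269) and not past the threshold under gLmna-2 (0.26, adjusted p = 0.352). Cxcl1 showed 1.86 under gLmna-1 (adjusted p = 0.039) and -0.32 under gLmna-2 (adjusted p = 0.867). For Sfrp2 the values were 0.34 (adjusted p = 0.47) and -1.73 (adjusted p = 0.0219), and for Cck they were -0.23 (adjusted p = 0.832) and 2.47 (adjusted p = 0.0384).

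The same 2 guides were compared in the other genotypes. In +/+;Cas9/+ cells limma passed 0 genes (0%), with 1009 at an unadjusted p below 0.05, and in Pro/+; +/+ cells 0 genes (0%), with 266. With a weight for each library 2 genes passed in +/+;Cas9/+ cells and 1868 had an unadjusted p below 0.05, against 0 and 1447 in Pro/Pro;Cas9/+ cells. The difference between genotypes was tested as an interaction: 6 genes (0.0476%) differed in their guide effect between Pro/Pro;Cas9/+ and +/+;Cas9/+ cells, and 300 (2.38%) between Pro/Pro;Cas9/+ and Pro/+; +/+ cells. Of the 1253 genes that passed, 82.7% had the same sign in +/+;Cas9/+ cells, against 64.6% of all tested genes, and 33.7% had it in Pro/+; +/+ cells, against 46.3%. Over all tested genes, which are not independent replicates, the guide difference correlated with that in +/+;Cas9/+ cells at r = 0.46 and with that in Pro/+; +/+ cells at r = -0.16; these sets share no libraries. Over all tested genes the median difference was 0.06 in Pro/Pro;Cas9/+ cells and 0.02 in +/+;Cas9/+ cells.

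Complement genes were 3 of the 6 that differed from +/+;Cas9/+ cells, where Serping1 went from 64.1 and 45.2 to 97.8 and 82.5 FPKM, C1ra from 16.3 and 14.4 to 18.3 and 17.9 FPKM and Cfb from 2.79 and 2.49 to 4.00 and 3.77 FPKM. Each was higher under gLmna-2 in both mice there and lower in both Pro/Pro;Cas9/+ mice. Mmp13 was the same, going from 33.2 and 36.2 to 75.2 and 87.6 FPKM in +/+;Cas9/+ cells (interaction -2.34 ± 0.26, adjusted p = 0.0249). Npnt (nephronectin), an integrin ligand, went the other way, from 1.92 and 0.82 to 5.66 and 3.52 FPKM in Pro/Pro;Cas9/+ cells and from 3.81 and 4.25 to 2.44 and 2.90 FPKM in +/+;Cas9/+ cells (interaction 1.71 ± 0.18, adjusted p = 0.0249). For Mdm2 the guide difference was 0.90 in Pro/Pro;Cas9/+ cells, 0.24 in +/+;Cas9/+ cells (interaction adjusted p = 0.138) and 0.03 in Pro/+; +/+ cells (interaction adjusted p = 0.0244). For Cxcl1 these were -2.18, 1.08 (adjusted p = 0.0525) and -0.05 (adjusted p = 0.0453). The count of 6 was 0 without the block, in mice with Cas9 only, with library weights and with 1 weight per genotype, and the count of 300 was 1 without the block, 0 with library weights and 147 with 1 weight per genotype. Both counts hung on single libraries. Without the gLmna-1 library of Pro/Pro;Cas9/+ mouse 1 they were 548 and 2056, and without the gLmna-2 library of either Pro/Pro;Cas9/+ mouse they were at most 1. The count of 6 was also 0 without either gLmna-1 library or the gLmna-2 library of mouse 2 of +/+;Cas9/+ or of Pro/+; +/+ cells, 18 without the gLmna-2 library of mouse 1 of +/+;Cas9/+, and 11 without either gMock library of Pro/Pro;Cas9/+. The count of 300 was also 0 without those same 3 libraries of Pro/+; +/+ cells, and 47 to 154 without any other library of that genotype or of +/+;Cas9/+.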

How the data were processed

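RNA of 18 libraries was read from 1 deposited table. The authors deposited FPKM computed by HOMER from exon reads, and left transcript parts uncombined, per the file headers; reads were checked with FastQC 0.11.2 and aligned to mm10 with STAR 2.4.0k, per the submitters' processing notes. Strand was not stated, so overlapping and antisense genes (such as Mest and Copg2) cannot be separated. The table held 24 library columns, of which 6 match no labelled sample and were not used. Its 404759 parts were joined into 36795 transcripts by length, a unit of the deposited table given in bases per the file headers, and 1 transcript was taken for each of 24445 symbols, that with the highest mean FPKM. All low values tested were whole multiples of what 1 read is worth (100%, within 0.05), which gave the depth.

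The 12599 genes that reached 1 FPKM in 2 or more libraries entered the test on log2(FPKM + 1), which understates changes of low genes, with limma 3.58.1 (trended eBayes, R 4.3.3), genotype by guide terms and the mouse as a block (6 residual degrees of freedom). The replicate number comes from the mouse in the title, so the libraries are paired; after group means were removed, the correlation within a mouse was -0.02 between the guides, 0.13 between gMock and gLmna-1 and 0.78 between gMock and gLmna-2 in Pro/Pro;Cas9/+ cells. Adjustment of p-values followed Benjamini and Hochberg across the 12599 genes, and errors are standard errors (SE) of the fit, n = 2 mice. Xist and Ddx3y were in accord within all 6 mice. A check on simulated data required only that the mean estimate of a known difference be right under an even spread between genotypes. How many genes pass wrongly under an uneven spread, as in these data, is not reported here.

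The members and the 38 gene lists were chosen with earlier results of these data known. Besides Lmna, the rule for naming genes took, in each direction, at most 12 that passed, ranked by the size of the difference, given the same sign in either mouse and a 4-library mean of 2 FPKM or more (sex-linked and unnamed gene models left out). From each list it took at most 5 that passed, by p, or the first by p where none did, and for other contrasts at most 5 per direction. Further list members were named after their values were seen. Alternatives were other pseudocounts (0.1 and 5), filters (none, 5 FPKM), scalings, weights, sets of libraries, the longest transcript, no block, and leaving out each library; reads recovered from the FPKM steps went through limma's voom with TMM factors computed by hand-written code. Some genes that the naming rule took are not reported here.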

Additional observations from a re-analysis of the deposited data

Results flagged for a closer look

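The guide difference itself differed between genotypes by an interaction term for 6 genes against +/+;Cas9/+ cells and for 300 genes against Pro/+; +/+ cells. Against +/+;Cas9/+ cells the log2 difference of differences was 1.71 for Npnt, -2.34 for Mmp13, -1.71 for Lbp, -1.39 for Serping1, -1.23 for C1ra and -1.19 for Cfb, with adjusted p-values (limma) of 0.0249 for all but C1ra, at 0.0333. These are all 6 genes.

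Against Pro/+; +/+ cells the genes with the widest positive values were Crct1 at 3.63, Cck at 3.06, S100a7a at 3.01, Krt19 at 2.74 and Fgf2 at 2.66. Krt19, a simple epithelial keratin, stood at 3.20 and 0.47 FPKM under gLmna-1 and at 14.2 and 5.84 FPKM under gLmna-2 in Pro/Pro;Cas9/+ cells, and at 5.88 and 6.47 FPKM and at 3.55 and 3.30 FPKM in Pro/+; +/+ cells. The widest negative values were those of Mest at -3.66, Ptx3 at -3.21, Steap4 at -2.88, Npr3 at -2.69 and Sfrp2 at -2.63. Adjusted p-values of these 10 genes ran from 0.0187 to 0.0463.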

How the results depend on the processing

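The genes among the 1253 that had a value kept their direction in each of 32 alternative fits. The exception was 1 gene of 1249 when the longest transcript was used. With the filter at 5 FPKM 1020 of the 1253 had a value, and in the other fits all did. Many of these fits leave the estimated difference unchanged, and the genes were chosen by it, so a kept direction is no added evidence. The count was 59 without the replicate block, 0 with the Pro/Pro;Cas9/+ libraries alone, 353 in mice with Cas9 only, 0 with library weights and 244 with 1 weight per genotype; leaving out each library gave 140 to 2629, where a lone sample is assumed to vary like the others. In +/+;Cas9/+ cells the count of 0 became 2 with library weights, 1 at a pseudocount of 5, 6 with no filter and 0 to 8 on leaving out each library; in Pro/+; +/+ cells it became 7 with no filter. The 6 genes of the interaction with +/+;Cas9/+ became 0 without the replicate block, in mice with Cas9 only, with library weights and with 1 weight per genotype, 26 with no filter, 10 with median-of-ratios scaling, 12 with quantile normalization, 10 with voom and 0 to 548 on leaving out each library. The 300 of the interaction with Pro/+; +/+ became 1 without the replicate block, 0 with library weights, 85 with no filter, 147 with 1 weight per genotype and 0 to 2056 on leaving out each library. The cause was not tested. Having 2 mice a group limits the precision of every count.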
